A study of Mus musculus with 4 samples.

Results

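The genes described here are the cyclins that drive G1 phase of the cell cycle, one of their kinase partners and the inhibitors that hold those kinases back: Ccnd1, Ccnd2, Ccnd3, Ccne1, Ccne2, Cdk6, Cdkn1a, Cdkn1b, Cdkn2a and Cdkn2b. They were taken by gene name from the deposited expression table, which holds 39179 genes, and all 10 were found. The RNA was described as coming from primary aortic smooth muscle cells of mice, 18 days after tamoxifen. The knockout group (KO) was 2 libraries from Sm-Yap/Taz-KO mice, in which the genes for YAP (Yap1) and TAZ (Wwtr1), the transcriptional co-activators at the end of the Hippo pathway, were targeted. The wild-type group (WT) was 2 libraries from WT mice, and its labels give the same tamoxifen interval. The promoter that drove recombination, the ages of the mice and the number of animals behind a library are not stated in the sources used. Since no label says that replicate libraries came from separate animals, the p-values below cover the spread between libraries, which may be technical.

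A cell in G1 commits to DNA replication when cyclin D, bound to CDK4 or CDK6, and then cyclin E, bound to CDK2, phosphorylate the retinoblastoma protein and its relatives and release the E2F transcription factors. E2F in turn raises transcription of cyclin E and of the genes of DNA replication. CDK inhibitors oppose this step: the INK4 proteins, among them p16 from Cdkn2a and p15 from Cdkn2b, bind CDK4 and CDK6, and the CIP/KIP proteins p21 (Cdkn1a) and p27 (Cdkn1b) bind cyclin-kinase complexes more broadly. Smooth muscle cells of the adult vessel wall are mostly quiescent and re-enter the cycle after injury, and p27 and cyclin D1 are among the best studied regulators of that switch.

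All values are normalized read counts, that is, the authors' reads per gene divided by a factor for each library and rounded. They summed to 13279332 to 13861333 in the KO and 14235444 to 14519178 in the WT libraries, and the spacing of the rounded values gave about 11810000 to 12290000 reads on genes in the KO and 15620000 to 16810000 in the WT. The spacing matched its estimate better in the KO (correlation 0.941 and 0.947) than in the WT (0.579 and 0.691). The WT read numbers are therefore less certain. By these estimates 1 normalized count stood for about 1 read in every library. Yap1, which checks the labels, had 947 and 962 counts in the KO and 1966 and 1877 in the WT (limma adjusted p = 0.0080, log2 fold change -1.01), and Wwtr1 had 2848 and 2466 against 3423 and 4016 (limma adjusted p = 0.0553, log2 fold change -0.48). Smooth muscle markers were abundant in all 4 libraries, with Acta2 at 41201 and 33544 in the KO and 157904 and 150117 in the WT. Markers of macrophages, adipocytes, endothelial cells and fibroblasts were also present in all 4 libraries, so the RNA need not be of smooth muscle cells alone. Markers of other cells also differed between the groups and are given beside the results below.

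Of the 10 genes, 9 had a mean of at least 10 counts over the 4 libraries and were tested, and Cdkn2a was not. At a limma adjusted p under 0.05, Ccnd1 and Ccne1 rose in the KO, Ccnd2 and Cdk6 fell, and the other 5 did not pass. Over all 15058 genes tested, 9.58% were called higher and 6.70% lower (16.3% in either direction). The groups did not overlap for 8 of the 9 tested genes, 4 higher and 4 lower in the KO. The share over all tested genes was 62.8%, with 30.7% higher and 32.1% lower. The median log2 fold change of the 9 was -0.14, beside -0.02 over all tested genes. Ccne1 passed the filter on low counts through its KO libraries alone, so these counts are a description and not support.

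**Figure D1:**
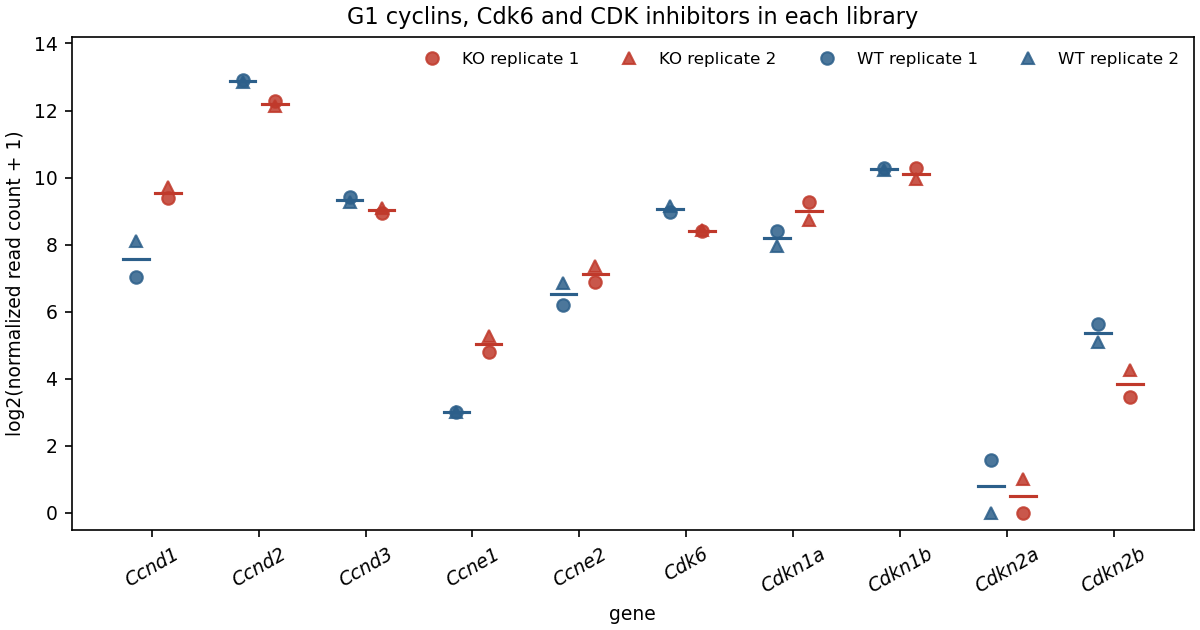
Level of each gene in every library as log2(normalized read count + 1), with WT in blue and KO in red, circles for replicate 1, triangles for replicate 2 and a bar at the group mean. Ccnd1 and Ccne1 lie higher and Ccnd2 and Cdk6 lower in both KO libraries, and Cdkn2a lies near 0 in all 4.

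Of the D-type cyclins, which couple growth signals to CDK4 and CDK6, Ccnd1 rose, Ccnd2 fell and Ccnd3 did not pass. Ccnd1 (ENSMUSG00000070348, chromosome 7, 144929931 to 144939925, minus strand, GRCm38), which encodes cyclin D1, had 667 and 839 counts in KO replicates 1 and 2 and 129 and 277 in WT replicates 1 and 2. Both KO libraries lay above both WT libraries, and the WT libraries differed from each other more, in proportion, than the KO libraries did. The mean was 753 ± 122 (SD, n = 2) in the KO and 203 ± 105 in the WT, a 3.71-fold difference (log2 fold change 1.98, SE 0.36, 95% interval 1.10 to 2.85, limma adjusted p = 0.0206). The log2 fold change was 2.53 (limma adjusted p = 0.0384) without WT replicate 2 and 1.43 (0.132) without WT replicate 1, so the size rested in part on which WT library was kept. The call was also lost without KO replicate 1 or 2 (limma adjusted p = 0.198 and 0.255). In the annotation, 1100 bases (23.4%) of the Ccnd1 exons are shared with LTO1, a gene on the opposite strand. LTO1 itself had 179 and 160 counts in the KO and 180 and 175 in the WT.

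Ccnd2 (ENSMUSG00000000184, chromosome 6, 127125162 to 127152193, minus strand), the gene of cyclin D2, had 4977 and 4471 counts in the KO and 7678 and 7397 in the WT. The replicates lay close together and the groups were well apart. The mean fell from 7538 ± 199 to 4724 ± 358 (SD, n = 2), a 1.60-fold difference (log2 fold change -0.68, SE 0.11, 95% interval -0.93 to -0.42, limma adjusted p = 0.0150). It kept this direction whichever library was left out, while the adjusted p then lay between 0.0774 and 0.209. Ccnd3 (ENSMUSG00000034165, chromosome 17, 47505051 to 47599691, plus strand), the gene of cyclin D3, had 496 and 540 counts in the KO and 679 and 612 in the WT. Its groups did not overlap, but the difference did not pass (log2 fold change -0.32, SE 0.13, 95% interval -0.63 to 0.00, limma adjusted p = 0.154).

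Per kilobase of annotated exon, which allows the 3 genes to be set against each other, Ccnd2 was the most abundant D-type cyclin gene in every library. Ccnd1 made up 2.98% and 6.43% of the D-type total in the WT libraries and 19.5% and 24.9% in the KO libraries. Ccnd2 made up 88.6% and 85.9% in the WT and 72.7% and 66.5% in the KO, and Ccnd3 between 7.62% and 8.61% in all 4. The level of Ccnd2 per kilobase was thus 29.8 and 13.4 times that of Ccnd1 in the WT and 3.73 and 2.67 times in the KO. The summed level of the 3 genes was 921 and 915 counts per kilobase in the WT and 727 and 715 in the KO, so the gain of Ccnd1 was smaller, in counts per kilobase, than the loss of Ccnd2. The log2 ratio of Ccnd1 to Ccnd2 was higher in the KO by 2.66 (two-sided exact permutation p = 0.333, n = 2 per group), which is the smallest p that 2 libraries against 2 can give. This ratio sets a gene called higher against one called lower in the same libraries, so the test adds no support.

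**Figure D2:**
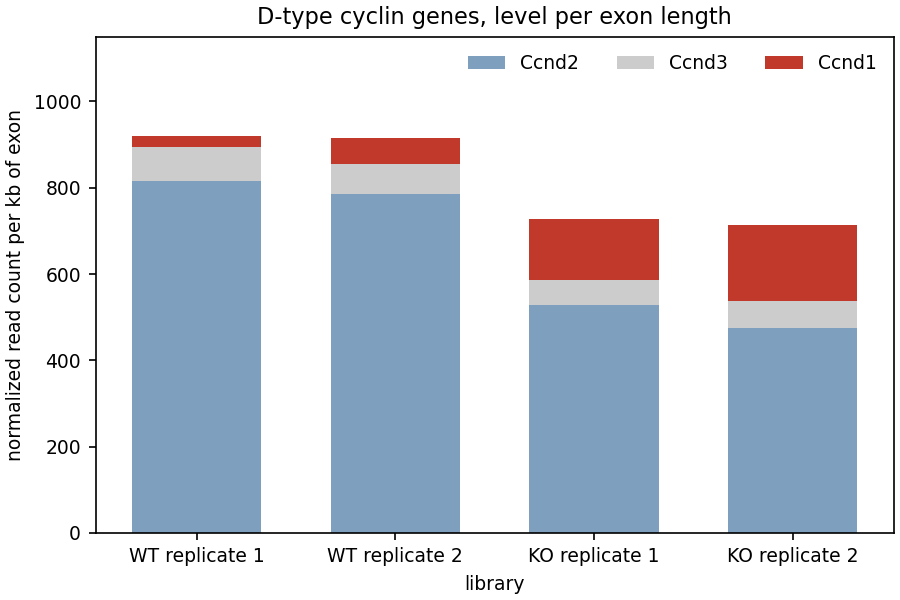
Normalized read count per kilobase of exon of the 3 D-type cyclin genes, stacked for each library. The total is lower in both KO libraries (727 and 715) than in the WT libraries (921 and 915), while the Ccnd1 part is larger.

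The E-type cyclins, which activate CDK2 at the entry to S phase, were both present, Ccne1 with fewer counts than Ccne2 in every library. Ccne1 (ENSMUSG00000002068, chromosome 7, 38097984 to 38107534, minus strand) had 27 and 38 counts in the KO and 7 and 7 in the WT. The 4.64-fold difference (log2 fold change 2.05, SE 0.52, 95% interval 0.76 to 3.33) was just inside the threshold (limma adjusted p = 0.0499). It was outside with a pseudocount of 0.5 (0.0517), after quantile normalization (0.0811), and without any single library (0.154 to 0.235). With 7 reads or so in each WT library, the size of this change is among the least precise here. Ccne2 (ENSMUSG00000028212, chromosome 4, 11191351 to 11204779, plus strand) had 118 and 164 counts in the KO and 73 and 115 in the WT. The lowest KO value lay just above the highest WT value, and the difference did not pass (log2 fold change 0.60, SE 0.31, 95% interval -0.17 to 1.37, limma adjusted p = 0.249). The log2 fold change was 0.27 without WT replicate 1 and 0.92 without WT replicate 2. Of its exons, 17.4% are shared with Ints8 on the opposite strand, which had 1001 and 953 counts in the KO and 956 and 1020 in the WT. Per kilobase, Ccne1 was 11.2% and 7.40% of the E-type total in the WT and 23.1% and 23.3% in the KO.

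Cdk6 (ENSMUSG00000040274, chromosome 5, 3341485 to 3531008, plus strand), a kinase partner of the D-type cyclins, had 335 and 345 counts in the KO and 497 and 563 in the WT. The KO libraries nearly coincided and lay below both WT libraries. The mean fell from 530.0 ± 46.7 to 340.0 ± 7.07 (SD, n = 2), a 1.56-fold difference (log2 fold change -0.64, SE 0.14, 95% interval -0.97 to -0.30, limma adjusted p = 0.0320). The adjusted p was between 0.164 and 0.216 when a library was left out, with log2 fold changes from -0.73 to -0.55. Cdk4, the other partner, had 380 and 350 against 323 and 325 (limma adjusted p = 0.457, log2 fold change 0.17), and Cdk2, the partner of cyclin E, had 298 and 262 against 200 and 238 (limma adjusted p = 0.229, log2 fold change 0.36). Neither passed.

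Among the 4 called genes, Ccne1 and Cdk6 have a promoter window in the RefSeq table used here (GRCm38.p6, 250 bases before to 50 after the start). They are shown because the genes moved in opposite directions, with matches to the GC box (GGGCGG, either strand) in capitals.
Ccne1, chr7:38107441-38107740, minus strand: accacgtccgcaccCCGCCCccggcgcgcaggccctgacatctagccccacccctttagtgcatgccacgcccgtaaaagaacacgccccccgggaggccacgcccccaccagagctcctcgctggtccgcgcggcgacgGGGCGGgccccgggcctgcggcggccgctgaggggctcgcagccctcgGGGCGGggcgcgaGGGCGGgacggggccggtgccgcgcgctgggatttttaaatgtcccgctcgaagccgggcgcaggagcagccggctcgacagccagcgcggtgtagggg
Cdk6, chr5:3343643-3343942, plus strand: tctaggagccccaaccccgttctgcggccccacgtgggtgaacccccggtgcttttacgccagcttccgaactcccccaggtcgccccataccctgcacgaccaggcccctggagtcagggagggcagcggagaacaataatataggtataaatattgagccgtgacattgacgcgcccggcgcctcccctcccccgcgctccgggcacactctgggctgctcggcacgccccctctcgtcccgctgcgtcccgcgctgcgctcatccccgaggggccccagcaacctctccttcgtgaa
The Ccne1 window holds 4 GC boxes, beginning 236, 110, 62 and 49 bases before the start, and the Cdk6 window holds none. The Cdk6 window begins at 3343643, inside the gene, whose first annotated base is 3341485, so it covers a downstream start only. A GC box is found in 35.7% of the 32851 promoter windows of the table. Neither window holds an E2F match (TTTCCCGC, TTTCGCGC, TTTGCCGC or TTTGGCGC, in 2.26% of all windows), an AP-1 match (TGANTCA, 7.81%), a CRE (TGACGTCA, 1.79%) or a TEAD match (GGAATG, 14.7%), all searched on both strands. Windows were present for 7 of the 10 genes (10 windows in all). Of these, 1 window of Cdkn2a held an E2F match, 1 of Ccnd3 a TEAD match and that of Cdkn2b a CRE. A GC box lay in at least 1 window of each of these genes except Cdk6. Ccnd3, Cdkn1a, Cdkn1b and Cdkn2b, which hold it too, were tested and not called, and Cdkn2a was not tested. Ccne1 and Cdk6 are the only called genes with a window, so whether the box marks called genes could not be judged. A match is a stretch of letters and was not tested as a binding site.

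The CIP/KIP inhibitors did not pass. Cdkn1a (ENSMUSG00000023067, chromosome 17, 29090976 to 29100727, plus strand), which encodes p21 and is a classical target of p53, had 621 and 424 counts in the KO and 336 and 250 in the WT. Both KO libraries were higher, but the replicates of each group were spread. The mean was 522.5 ± 139 (SD, n = 2) against 293.0 ± 60.8, a 1.78-fold difference (log2 fold change 0.82, SE 0.24, 95% interval 0.23 to 1.41, limma adjusted p = 0.0693). The adjusted p was 0.0445 after scaling all libraries to the same total. Cdkn1b (ENSMUSG00000003031, chromosome 6, 134920401 to 134925513, plus strand), which encodes p27, had 1239 and 998 counts in the KO and 1259 and 1199 in the WT. It was the one tested gene whose groups overlapped (log2 fold change -0.14, SE 0.14, 95% interval -0.48 to 0.19, limma adjusted p = 0.521). Without KO replicate 2 its log2 fold change was 0.01.

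The upstream start of Cdkn1a has a window that is shown because it carries p53 half-site letters, in capitals, beside a gene whose change did not pass.
Cdkn1a, chr17:29090729-29091028, plus strand: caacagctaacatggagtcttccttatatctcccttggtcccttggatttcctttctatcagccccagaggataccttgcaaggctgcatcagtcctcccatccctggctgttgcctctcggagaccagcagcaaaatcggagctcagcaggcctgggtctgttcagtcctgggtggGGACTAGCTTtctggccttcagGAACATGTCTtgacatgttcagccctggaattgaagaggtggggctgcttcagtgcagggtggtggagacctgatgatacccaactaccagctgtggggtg
The 2 matches to the p53 half-site consensus, searched on both strands, begin 73 and 51 bases before that start, and 8.36% of all windows hold at least 1. The window of the second start of Cdkn1a holds none.

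The INK4 genes among the 10 had few counts. Cdkn2b (ENSMUSG00000073802, chromosome 4, 89306299 to 89311039, minus strand), the gene of p15, had 10 and 18 counts in the KO and 49 and 33 in the WT. Its groups did not overlap, yet the 2.93-fold lower KO mean did not pass (log2 fold change -1.51, SE 0.50, 95% interval -2.75 to -0.28, limma adjusted p = 0.0967). Cdkn2a (ENSMUSG00000044303, chromosome 4, 89274471 to 89294653, minus strand), its neighbour, encodes p16 and, in another reading frame, the p53 activator ARF. It had 0 and 1 counts in the KO and 2 and 0 in the WT, so neither a level nor a difference was measurable at this depth, and a value per gene could not tell the 2 products apart. Of the inhibitors outside the 10 genes, Cdkn2c (144 and 118 against 67 and 103), Cdkn2d (73 and 76 against 67 and 71) and Cdkn1c (265 and 187 against 211 and 244) did not pass either.

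**Figure D3:**
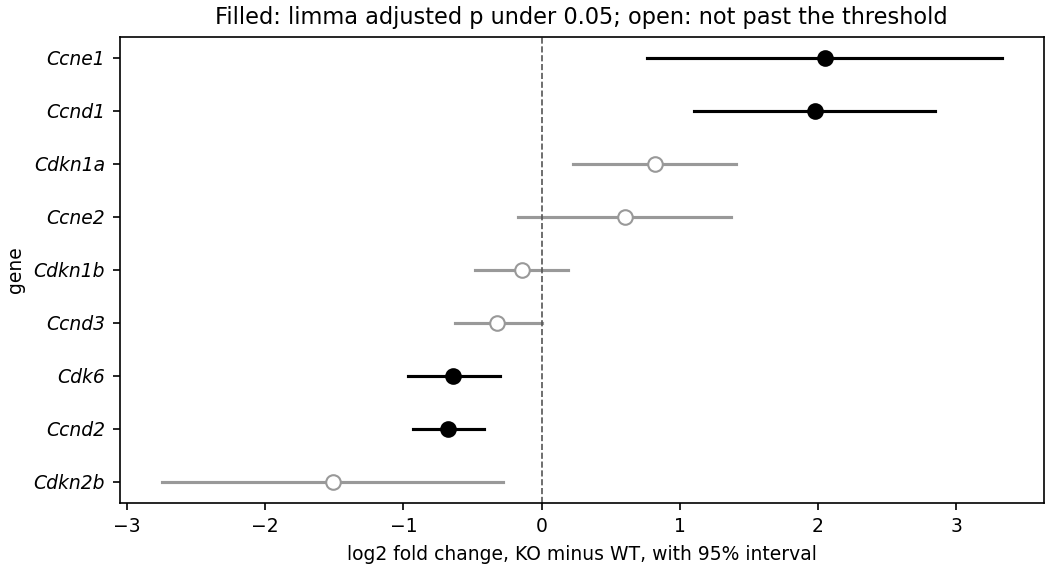
Log2 fold change of KO minus WT with its 95% interval from limma for the 9 tested genes, filled where the adjusted p is under 0.05. Ccne1 (2.05) and Ccnd1 (1.98) lie to the right and Cdk6 (-0.64) and Ccnd2 (-0.68) to the left, while Cdkn2b has the widest interval among the genes that fell short.

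Ordered by level per kilobase of exon, the WT means ran from Ccnd2 (801 counts per kilobase) through Cdkn1b (270), Cdkn1a (82.5), Ccnd3 (73.6), Ccnd1 (43.1), Cdk6 (37.9), Cdkn2b (29.5), Ccne2 (26.9) and Ccne1 (2.63) to Cdkn2a (0.853). The library values of Cdkn1a and Ccnd3 overlapped, as did those of Ccnd1 with Cdk6, Cdkn2b and Ccne2, and those of Cdkn2b with Ccne2. The order within these pairs is not settled. In the KO the order per kilobase was Ccnd2 (502), Cdkn1b (246), Ccnd1 (160), Cdkn1a (147), Ccnd3 (59.0), Ccne2 (40.3), Cdk6 (24.3), Ccne1 (12.2), Cdkn2b (10.1) and Cdkn2a (0.427). Here the values of Ccnd1 overlapped those of Cdkn1a and the values of Ccne1 those of Cdkn2b. By its mean per kilobase Ccnd1 thus stood below Cdkn1a and Ccnd3 in the WT and above them in the KO, with Ccnd2 and Cdkn1b ahead of it in both groups. Exon lengths come from the annotation and not from the transcripts in use in these cells.

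The genes that act with or downstream of these regulators were counted by list. Over all genes tested, 9.58% were called higher and 6.70% lower. Of 13 pocket proteins and E2F family genes, 4 rose, 1 fell and 8 did not pass, with a median log2 fold change of 0.44. Rbl1, which encodes the pocket protein p107, rose (336 and 428 counts in the KO, 154 and 181 in the WT, log2 fold change 1.18), as did E2f7 (56 and 72 against 8 and 15, 2.43), a repressor of the family. Tfdp2, which encodes a dimer partner of E2F, fell (-0.59). Rb1 itself had 1213 and 977 against 941 and 992 and did not pass (0.17, limma adjusted p = 0.447), and E2f1, with 117 and 98 against 17 and 46, missed the threshold (1.89, limma adjusted p = 0.0535). The count of risers was 1 when a mean of at least 50 counts was required, since several of these genes are low.

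Of 16 replication licensing genes, 4 rose and 12 did not pass (median 0.65). Mcm10, which helps to start replication forks, had 54 and 81 counts against 6 and 9, and the helicase subunit genes Mcm5 (log2 fold change 1.74) and Mcm7 (0.78) also rose. Of 12 genes of S, G2 and M phase, 11 rose and 1 did not pass (median 2.70), while 5 were called with a mean of at least 50 counts required and 0 to 2 with 1 library left out. Top2a had a log2 fold change of 3.29, the cyclin A gene Ccna2 had 224 and 354 against 46 and 62 (2.38), and the proliferation marker Mki67 had 1785 and 2680 against 139 and 359 (3.28). The counts of risers among the licensing and the pocket protein and E2F genes also shrank with any 1 library left out. In these 3 lists 9 tested genes, Mcm10 among them, passed the filter through 1 group alone. The 10 genes that control the turnover or activity of cyclins and inhibitors gave 0 calls in limma (1 at an unadjusted p under 0.05): Skp2, part of the ligase that removes p27, had 112 and 148 counts against 138 and 104 (a log2 difference of 0.10), and the smallest p was that of Gsk3b (-0.31, limma adjusted p = 0.0719). Of 8 kinases, kinase-activating subunits and other inhibitors, 0 passed in limma (2 at an unadjusted p under 0.05), and Cdk7 came closest (-0.44, limma adjusted p = 0.0524). After quantile normalization 2 of these 8 were called lower.

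**Figure D4:**
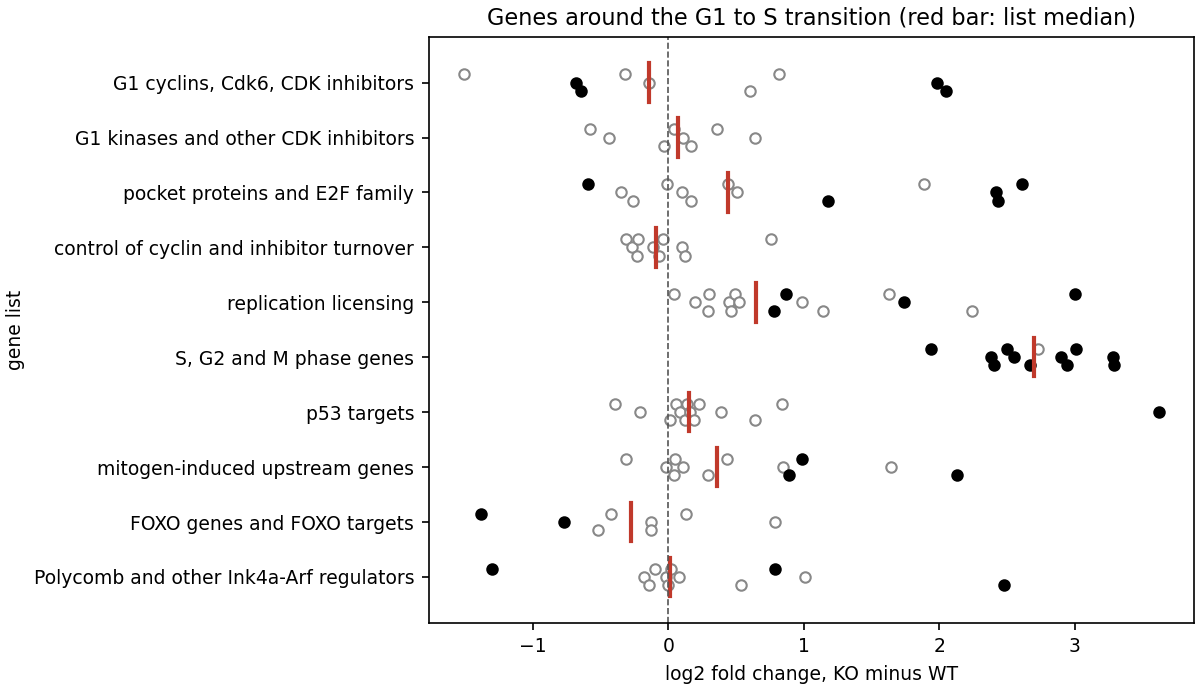
Log2 fold change of KO minus WT of each tested gene, by list, filled where the limma adjusted p is under 0.05, with a red bar at the list median. The genes of S, G2 and M phase lie to the right of 0 throughout (median 2.70), while the lists of G1 kinases and of turnover genes centre near 0.

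Lists of known inputs to the G1 regulators gave mixed counts, to be read beside 9.58% called higher and 6.70% called lower over all genes tested. Of 14 tested p53 genes and targets, 1 rose and 13 did not pass (median 0.15): the riser was Pmaip1, an apoptosis gene, with 27 and 80 counts against 2 and 4. Pmaip1 passed the filter through its KO libraries alone, and 0 genes of this list were called higher with a mean of at least 50 counts required or with any 1 library left out. Mdm2 (1036 and 860 against 811 and 926, log2 fold change 0.12) and Trp53 (233 and 228 against 214 and 198, 0.16) did not pass. Of 12 mitogen-induced genes, 3 rose and 9 did not pass (median 0.36): Junb rose with a log2 fold change of 2.13 (424 and 776 against 137 and 124), and Spry4 (0.99) and Dusp6 (0.89), feedback inhibitors of the ERK pathway, rose less. Myc, at 35 and 72 against 8 and 29, did not pass (1.64, limma adjusted p = 0.169). Of 8 FOXO genes and targets, 2 fell and 6 did not pass (median -0.28): Irs2 (345 and 346 against 904 and 897, -1.38) and Foxo1, which encodes a factor that can raise Cdkn1b (-0.77). Of 12 regulators of the Cdkn2a locus, 2 rose, 1 fell and 9 did not pass (median 0.01): Tbx3, a repressor of ARF, rose (104 and 100 against 18 and 17, 2.48), as did the Polycomb methyltransferase gene Ezh2 (0.79), and Cbx7, a Polycomb repressor of the locus, fell (-1.30), while Cdkn2a itself had 0 to 2 counts.

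Over the 4 libraries, the genes of these lists whose centred log2 values lay nearest to those of Ccnd1 were Mcm5 (Euclidean distance 0.29) and Aurka (0.42). Nearest to Ccne1 were Junb (0.31) and Ccna2 (0.46), nearest to Ccnd2 were Mnat1 and Tfdp2 (0.12 each), and nearest to Cdk6 were Mnat1 (0.19) and Ccnd2 (0.22). The profile is only 4 values long, and the likeness is a description among 114 genes chosen for their part in the cell cycle or its control.

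The preparations also differed in markers of other cells, and in bulk RNA fewer cells of a type and less RNA per cell cannot be told apart. Of 15 macrophage markers, 14 rose and 1, Aif1, did not pass. Aif1 (5 and 37 against 2 and 5) and Fcgr1 (67 and 165 against 3 and 12), which was called, passed the filter through the KO alone, so the count is a description, and it was 0 to 11 with 1 library left out. The summed macrophage level was 14939 and 19230 in the KO and 1452 and 4050 in the WT. Of 10 adipocyte markers 8 rose (summed level 13157 and 11867 against 1611 and 4476), of 10 endothelial markers 5 (12775 and 11031 against 4695 and 7084), of 10 fibroblast markers 2 (272180 and 278778 against 81548 and 173829) and of 6 Schwann and nerve markers 1 (737 and 813 against 238 and 525). The fibroblast count was 5 at the same total and 7 after quantile normalization. All 10 fibroblast and all 10 endothelial markers were higher in both KO libraries than in both WT libraries (median log2 fold change 1.28 and 1.34). Over all tested genes, 30.7% were higher in this way. Of 10 T and B cell markers 9 were below the filter, and their summed level was 61 and 101 against 17 and 19. Of 10 smooth muscle markers, 8 fell and 1 rose, with a summed level of 161027 and 125678 against 433048 and 407088. The marker counts are to be read beside 9.58% called higher and 6.70% called lower over all genes tested. Without the filter on low values, 0 genes of any list were called. No marker of these lists was at 0 in all 4 libraries. Ccnd1 was lowest in WT replicate 1, then WT replicate 2, KO replicate 1 and KO replicate 2, and the summed genes of S, G2 and M phase (323, 717, 3346 and 5111) and of replication licensing (1950, 2205, 2883 and 3406) had that order too. So did the summed macrophage, fibroblast, Schwann and nerve, and T and B cell markers, but not the adipocyte and endothelial markers, which were highest in KO replicate 1. Ccnd2, the summed smooth muscle markers and the summed FOXO genes and targets shared the reverse order. Cdk6, also called lower, did not share it: it was lowest in KO replicate 1, then KO replicate 2, WT replicate 1 and WT replicate 2. Few orders are possible when groups of 2 libraries lie apart, so a shared order is a description only. The part of these markers in the levels of the G1 genes was not tested.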

How the data were processed

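RNA was measured in 2 KO and 2 WT libraries, which the labels' protocols describe as stranded total RNA libraries after ribosomal depletion. Of the tools in the submitters' processing notes, STAR 2.5.2b, featureCounts 1.5.1 and DESeq2 1.14.1 carry a version, and the build is GRCm38 (mm10). Their roles, the annotation, the strand setting and any filter are not stated in the sources used, so reads of overlapping opposite-strand genes cannot be told apart. The authors deposited 1 table of normalized counts as whole numbers, treated here as a score. They are not raw counts: 45 and 44 whole numbers up to 400 never occur in the KO columns.

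Genes with a mean of at least 10 were fitted as log2(value + 1) with limma 3.58.1 in R 4.3.3 (group only, intensity trend, 3.96 prior and 2 residual degrees of freedom). Two-sided p-values were adjusted over 15058 genes by Benjamini-Hochberg. This scale understates changes of low genes. SDs are on the count scale, SEs on the log2 scale. The fit was also run on simulated counts in which every gene had the same dispersion between libraries. Replicates here were less even, so that run does not vouch for the calls. Positions and exon lengths are from GENCODE M21. The genes and lists were chosen with earlier results of these data known. From each list the text names up to 3 called genes with the smallest p, or the 1 with the smallest p where none was called, and Cdk2, Cdk4, Rb1, E2f1, Skp2, Mdm2, Myc, Mki67, Trp53, Yap1 and Wwtr1. Cdkn2c, Cdkn2d and Cdkn1c were named after their values were seen.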

Additional observations from a re-analysis of the deposited data

How the results depend on the processing

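Over the 13 alternatives, no tested gene changed direction except Cdkn1b, whose adjusted p was 0.942 without KO replicate 2 (log2 fold change 0.01). The calls did not hold under every setting. Without the filter on low values the limma adjusted p was 0.121 for Ccnd1, 0.0931 for Ccnd2, 0.114 for Ccne1 and 0.105 for Cdk6, and without the intensity trend it was 0.0995, 0.0945, 0.0675 and 0.102. In both settings 0 of the 10 genes, 0 of the listed pathway genes and 0 of all genes were called in either direction, while 5472 and 4274 genes had an unadjusted p under 0.05. With 1 library left out, the adjusted p ran from 0.0384 to 0.255 for Ccnd1, from 0.0774 to 0.209 for Ccnd2, from 0.154 to 0.235 for Ccne1 from 0.164 to 0.216 for Cdk6 and from 0.210 to 0.942 for Cdkn1b. Over all genes, between 0 and 587 were then called higher (against 1443) and between 0 and 153 lower (against 1009). Of the listed pathway genes, 0 to 3 were higher (against 25) and 0 to 1 lower (against 4). Of the 10 genes, 0 to 1 were higher and 0 lower (against 2 and 2). Each of these highest counts came without WT replicate 2. Where a library was left out, the lone sample of its group was assumed to vary like the other group.

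Ccne1 had an adjusted p of 0.0517 with a pseudocount of 0.5 and 0.0811 after quantile normalization, which left 1 of the 10 genes higher. A mean of at least 50 counts removed Ccne1 and Cdkn2b, which have no value there, leaving 1 of the 10 genes and 15 pathway genes higher. Cdkn1a had an adjusted p of 0.0445 at the same total. Quantile normalization moved the median log2 fold change of all genes to -0.10. With a replicate block, the adjusted p was 0.0523 for Ccne1 and 0.0141 for Cdkn1a, and 4 regulators of the Cdkn2a locus were called higher (against 2). Libraries of the same number deviated from their group means with a correlation of 0.118, but 2 pairs are too few to show pairing. Depth limits Cdkn2a, Cdkn2b and Ccne1 most.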
